A study of Mus musculus with 3 samples.

Results

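The interneurons of the dorsal horn and of the ventral horn were compared in the lumbar spinal cord of wild-type (WT) mice, separately among excitatory and among inhibitory cells. Members were the neuron nuclei of WT mice that the deposited annotation called dorsal excitatory (DE), ventral excitatory (VE), dorsal inhibitory (DI) or ventral inhibitory (VI). This gave 4206 nuclei of 5724 WT neuron nuclei and of 14662 nuclei in the series. These were 2004 DE, 878 VE, 1006 DI and 318 VI nuclei. They came from 6 mice, 3 female and 3 male, all 90 days old and all C57BL/6J littermates of the transgenic animals. Nuclei were profiled by droplet-based single-nucleus RNA-seq in 3 pools named A, B and C. In each pool 4 animals (1 WT mouse and 1 SOD1G93A mouse of each sex) were told apart by antibody-bound hashtag oligonucleotides. The SOD1G93A mice carry the B6.Cg-Tg(SOD1*G93A)1Gur/J transgene of mutant human SOD1. Their 2285 nuclei of the same sub-types served here as animals that the WT comparison did not use. The labels came from mapping each nucleus by its expression onto a published map of spinal cord cell types. The tests below therefore measure how steadily the labelled nuclei differed from mouse to mouse and are not independent evidence of where a nucleus lay in the cord.

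The dorsal horn receives touch, temperature, itch and pain afferents, and most of its neurons are small local interneurons that sort this input with glutamate, GABA, glycine and a rich set of neuropeptides. The ventral horn houses the premotor circuits of locomotion and posture, in which glutamatergic neurons drive motor neurons and glycinergic and GABAergic neurons, such as Renshaw cells and reciprocal Ia interneurons, restrain them. In the embryo these families arise from progenitor domains stacked along the dorsal-ventral axis. Each domain is known by the transcription factors its neurons switch on, some of which persist into adult life.

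Each mouse gave between 365 and 1179 of these nuclei, and the pools gave 1237, 1961 and 1008. Per mouse there were 179 to 579 DE, 66 to 247 VE, 99 to 258 DI and 21 to 95 VI nuclei. In all, 66249754 unique molecular identifiers (UMIs, the count of captured RNA molecules) were summed. The smallest sum was that of the 21 VI nuclei of the male WT mouse of pool C, with 585952 UMIs, and the largest that of DE in the male WT mouse of pool B, with 7097160. Cell barcodes present in more than 1 pool numbered 15 over all nuclei and 2 among these.

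**Figure D1:**
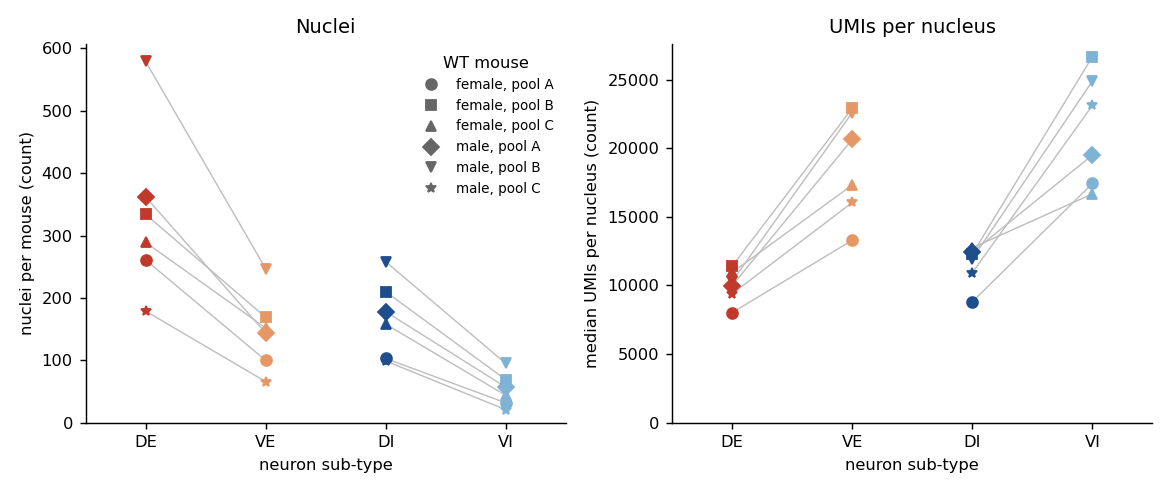
Nuclei per mouse (left, number) and median UMIs per nucleus (right) for DE, VE, DI and VI in the 6 WT mice, with lines joining the values of 1 mouse. In every mouse VE nuclei held more UMIs than DE nuclei and VI more than DI nuclei.

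Ventral nuclei held more RNA molecules than dorsal ones. Per nucleus, the median UMI count ran from 8024 to 11413 in DE and from 13294 to 22910 in VE over the 6 mice. In inhibitory nuclei it ran from 8815 to 12743 in DI and from 16673 to 26658 in VI. The sides did not overlap in either class. On the log2 scale dorsal minus ventral was -0.89 ± 0.20 in excitatory nuclei and -0.90 ± 0.24 in inhibitory nuclei (SD, n = 6; exact permutation test over mice, two-sided p = 0.03125, the smallest that 6 mice allow). The dorsal share of nuclei was 69.8% ± 3.15 among excitatory and 76.9% ± 3.22 among inhibitory nuclei. The log2 ratio of dorsal to ventral nuclei differed by -0.53 on average (excitatory minus inhibitory), below 0 in 6 of 6 mice (exact permutation p = 0.03125). Counting the mid sub-types of the annotation with the dorsal ones moved it to -0.889, below 0 in 6 of 6 mice as well. The part of capture and mapping in these shares was not tested, and 683 WT neuron nuclei carried no clear sub-type.

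The dorsal labels were given with more certainty than the ventral ones. Mapping scores run from 0 to 1, and the median score was 0.944 in DE and 0.889 in DI nuclei but 0.487 in VE and 0.446 in VI. DE nuclei mapped to 16 dorsal excitatory clusters of the reference and DI nuclei to 9 dorsal inhibitory ones. In contrast, 77.9% of VE nuclei mapped to the single cluster VE_4 and 98.7% of VI nuclei to VI_5. In the clustering of these nuclei by the authors, 98.1% of VI nuclei sat in clusters that also held at least 10 VE nuclei, and 38.5% of VE nuclei in clusters with at least 10 VI nuclei. For DI nuclei the share in clusters with at least 10 DE nuclei was 0.795%.

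Markers of the class followed the labels for DE and DI and less sharply for the ventral sub-types. Slc17a6, the vesicular glutamate transporter VGLUT2, summed to 111 to 129 CPM (UMIs of a gene scaled by the total UMIs of the sum) in DE and 95.4 to 124 in VE, against 5.52 to 24.3 in DI and 9.78 to 34.2 in VI. Oligodendrocyte nuclei of the same mice, which should lack the gene, held 14.7 to 44.1 CPM and astrocytes 19.7 to 55.3. The levels in both inhibitory sub-types thus lay at or below those of these glia. Gad1, which makes GABA, was at 103 to 145 CPM in DI but at 13.0 to 23.0 in VI, a range that lay within that of astrocytes (8.25 to 38.3). The glycine transporter gene Slc6a5 was at 119 to 182 CPM in VI and 31.4 to 45.8 in VE, the latter reaching into the range of astrocytes (17.2 to 36.2), and at 7.22 to 14.6 in DE. After thinning to 5000 UMIs per nucleus, which left out 10.0% of DE, 1.94% of VE, 5.27% of DI and 0.629% of VI nuclei as too shallow, 36.7% of DE and 33.0% of VE nuclei held UMIs of Slc17a6 and of no inhibitory gene (Gad1, Gad2, Slc32a1, Slc6a5). The reverse, inhibitory genes without Slc17a6, held for 8.32% of DE, 21.7% of VE, 73.9% of DI and 62.7% of VI nuclei. Markers of the side were uneven as well. The 12 dorsal horn markers summed to 456 to 550 CPM in DE, 142 to 215 in VE, 115 to 170 in DI and 50.3 to 72.8 in VI. The DI range overlapped those of VE and of astrocytes (136 to 305). The 14 ventral horn markers summed to 1018 to 1311 CPM in VE, 202 to 265 in DE, 1575 to 1901 in VI and 243 to 341 in DI. Astrocytes held 794 to 1083 CPM of them.

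RNA of other cells differed between the sides as a share of UMIs. Ventral nuclei held more UMIs in all, and amounts of such RNA per nucleus were not compared. The 5 oligodendrocyte markers, such as Mbp and Mog, summed to 356 to 588 CPM in DE and 169 to 297 in VE. They summed to 289 to 501 in DI and 154 to 176 in VI, with none of the 5 at 0, against 6393 to 8791 in oligodendrocytes. The 5 astrocyte markers showed the same order, with 135 to 185 CPM in DE, 59.1 to 89.7 in VE, 124 to 169 in DI and 45.4 to 62.3 in VI, none at 0. Mitochondrial UMIs, another sign of RNA from outside the nucleus, had medians higher in dorsal nuclei by 0.090 percentage points (excitatory) and 0.111 (inhibitory), in 6 of 6 mice each (exact permutation p = 0.03125). The part of these values in the gene results was not tested. The 6 motor neuron markers summed to 97.9 to 134 CPM in VE and 30.3 to 53.2 in DE, and to 66.6 to 134 in VI and 52.2 to 73.9 in DI, against 1251 to 1798 in motor neuron nuclei. They were thus higher ventrally, without overlap between DE and VE, and their part in the gene results was not tested. Among the 6, Slit3 is also in the list of axon guidance genes below and was itself at least 2-fold higher in VE than in DE. The sums therefore do not count RNA of motor neurons alone. Mnx1 was at 0 in DE and Isl1 at 0 in VI.

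Dorsal and ventral interneurons differed across a large share of the genes they express. Raw UMIs were summed per gene, mouse and sub-type, and limma-voom with mouse as a block tested dorsal against ventral. A gene was called at a Benjamini-Hochberg false discovery rate (FDR) under 0.1 over all genes tested. All fold changes are log2, dorsal minus ventral, and relative to the scaled total UMIs of each sum. UMIs per nucleus differed by -0.89 in excitatory and -0.90 in inhibitory nuclei on the same scale. A gene higher dorsally by less than this depth difference can therefore hold fewer molecules per dorsal nucleus. Between DE and VE, 7545 of 12455 genes tested were called (60.6%), 3664 higher in DE (29.4%) and 3881 higher in VE (31.2%). Between DI and VI, 5391 of 10147 were called (53.1%), 2578 higher in DI (25.4%) and 2813 higher in VI (27.7%). The counts over gene lists below stand against these shares. With a change of at least 2-fold required as well, 1560 excitatory genes (12.5%; 835 higher in DE, 6.7%, and 725 higher in VE, 5.82%) and 1269 inhibitory genes (12.5%; 735 higher in DI, 7.24%, and 534 in VI, 5.26%) remained. Levels below are CPM on library sizes scaled by TMMwsp over the 24 sums, given as the lowest, highest and median of the 6 mice. In such sums, more nuclei with a transcript and more of it per nucleus cannot be told apart.

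Most differences were shared by both transmitter classes. Of 10112 genes tested in both, 4243 were called on the same side in both classes (1929 dorsal and 2314 ventral) and 248 on opposite sides. At 2-fold, 393 genes were higher dorsally and 340 higher ventrally in both classes. Among the genes tested in both classes, 1094 were 2-fold in excitatory and 1239 in inhibitory neurons. The shared ones were 67% and 59.2% of these, and 18 genes lay on opposite sides. The difference of the differences, (DE minus VE) minus (DI minus VI), was called for 2011 of 12218 genes (16.5%), 899 of them more dorsal in excitatory (7.36%) and 1112 more dorsal in inhibitory neurons (9.1%). Without the pairing by mouse as a block this count was 1126. The labels VE and VI were weakly separated, with 98.1% of VI nuclei in clusters that also held at least 10 VE nuclei. With nuclei of a mapping score of at least 0.5, the class difference was called for 1444 of 11449 genes. With nuclei chosen for matching transmitter UMIs it was called for 1503 of 10938. Both choices were made after seeing the data and leave fewer nuclei. The part of the weak separation in the shared differences, the class differences and the calls on opposite sides was not tested.

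**Figure D2:**
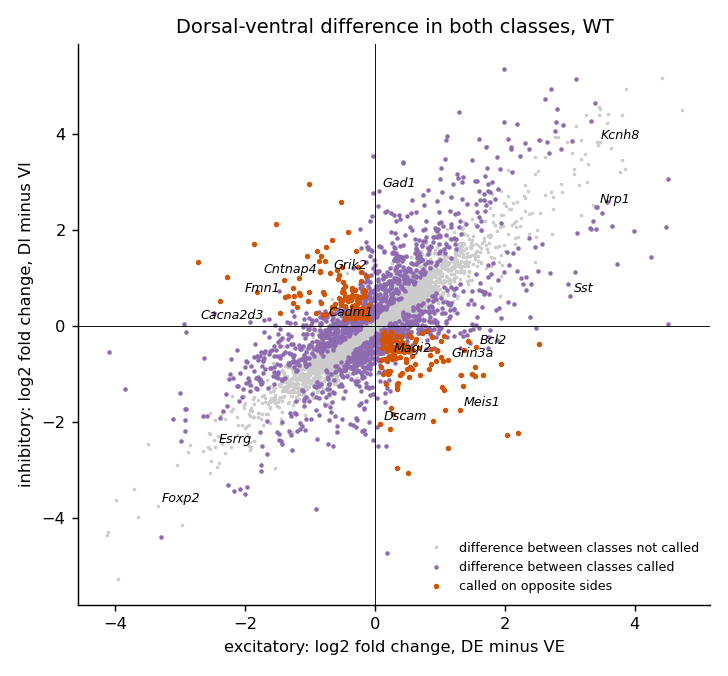
Dorsal minus ventral log2 fold change of each gene tested in both classes, excitatory neurons on the x axis and inhibitory neurons on the y axis. Points in purple differed between classes at FDR under 0.1 and orange points were called on opposite sides; most genes lie along the rising diagonal, and 248 called genes lie in the upper left or lower right.

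Dorsal excitatory neurons were marked by the homeodomain factors of dorsal horn glutamatergic fate. Lmx1b (GRCm38 chr2:33560965-33640511), which with Tlx3 keeps dorsal neurons glutamatergic, had 92.0 to 148 CPM (median 123) in DE and 0.859 to 10.4 CPM (median 5.65) in VE, and its log2 fold change was 4.04 ± 0.33 (SE), FDR 8.17e-06. Prrxl1 (chr14:32599407-32649246), also known as Drg11 and needed for nociceptive circuits, had 35.7 to 43.2 CPM (median 39.1) in DE and 1.02 to 4.09 CPM (median 1.86) in VE (4.10 ± 0.25 (SE), FDR 9.56e-16). For both genes the lowest DE mouse stood well above the highest VE mouse, and both inhibitory sub-types stayed under 4 CPM. Tlx3 reached only 5.45 to 9.33 CPM (median 7.35) in DE, and Mafa, a basic leucine zipper factor of mechanosensory circuits, 4.81 to 11.5 CPM (median 7.80). Both were called with a VE range that began at 0. Satb1 was called on opposite sides in the classes, with 145 to 169.7 CPM (median 158) in DE and 35.2 to 53.8 CPM (median 50.5) in VE (1.67 ± 0.066). In inhibitory neurons it had 13.4 to 36.1 CPM (median 22.0) in DI and 31.3 to 59.98 CPM (median 40.8) in VI (-1.02 ± 0.13; class difference 2.68 ± 0.21 (SE), FDR 9.86e-10).

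Dorsal inhibitory neurons carried another set. Gbx1 (chr5:24502757-24527202), a homeobox gene of dorsal GABAergic neurons, had 33.3 to 49.5 CPM (median 43.0) in DI and 1.54 to 5.93 CPM (median 3.49) in VI (3.61 ± 0.30 (SE), FDR 4.26e-11). Sall3, a zinc finger gene, had 74.1 to 124 CPM (median 95.6) in DI against 4.85 to 21.3 CPM (median 8.03) in VI (3.54 ± 0.26 (SE), FDR 2.05e-09), while DE and VE overlapped (-0.032 ± 0.29). Rorb (chr19:18930605-19111196), an orphan nuclear receptor found in inhibitory neurons that gate mechanosensory input, had 485 to 699 CPM (median 567) in DI and 9.23 to 59.5 CPM (median 31.8) in VI (3.87 ± 0.22 (SE), FDR 1.28e-06). It was also higher in DE than VE (1.09 ± 0.16), with a class difference of -2.78 ± 0.29 (SE), FDR 2.21e-06. Zic1 and Maf were higher dorsally in both classes, Zic1 by 2.05 ± 0.23 and 3.88 ± 0.41 and Maf by 1.44 ± 0.084 and 1.04 ± 0.16 in excitatory and inhibitory neurons.

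Of the 26 dorsal transcription factors listed, 10 passed the filter on low counts in the excitatory comparison, of which 9 were called higher in DE and none higher in VE. Their median log2 fold change was 1.86, against -0.0036 over all genes. In the inhibitory comparison 6 passed, 5 called higher in DI and 1 (Satb1) in VI, with a median of 3.58 against -0.0061. Without the filter 24 and 22 members were tested, 11 higher in DE and 5 in VE, and 7 higher in DI and 1 in VI. Calls made without the filter can rest on very few UMIs. Over all genes without the filter, 24105 were tested between DE and VE, 4256 called higher in DE and 4532 in VE. Between DI and VI 22888 were tested, 3204 called higher in DI and 5286 in VI. The unfiltered counts over gene lists here and below stand against these. A gene that is present on 1 side only can pass the filter through that side alone, so these counts describe the members that were measurable and lend no weight to the labels.

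**Figure D3:**
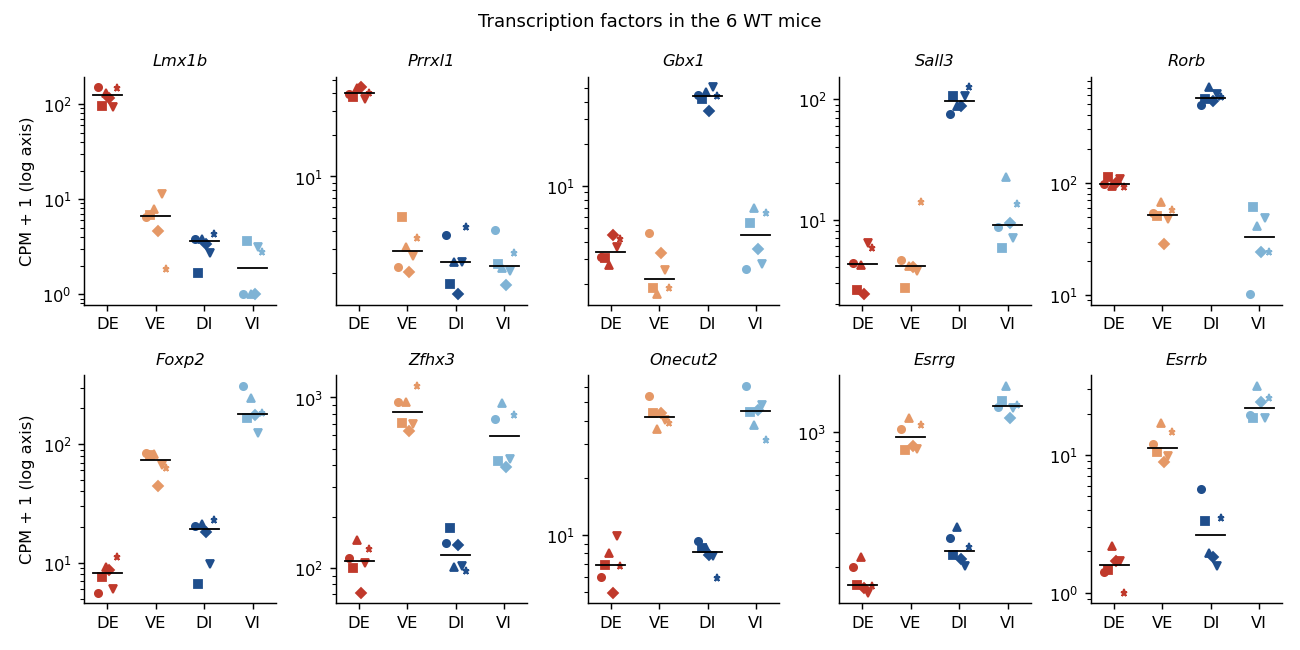
CPM + 1 (log axis) of 10 transcription factors in DE, VE, DI and VI, 1 marker per WT mouse with the marker shape naming the mouse as in the plot of nuclei, and a bar at the median. Lmx1b and Prrxl1 stand high in DE alone, Gbx1 and Sall3 in DI alone, and Foxp2, Zfhx3, Onecut2 and Esrrg in both ventral sub-types.

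Among ventral factors Foxp2 separated the sides in both classes. Foxp2 (chr6:14901349-15441977), a forkhead repressor of V1 inhibitory and some excitatory lineages, had 43.2 to 82.8 CPM (median 72.7) in VE and 4.61 to 10.2 CPM (median 7.17) in DE (-3.33 ± 0.16 (SE), FDR 2.21e-15). In inhibitory neurons it had 124 to 309 CPM (median 177) in VI and 5.57 to 22.1 CPM (median 18.4) in DI (-3.74 ± 0.17 (SE), FDR 2.96e-13), so that no dorsal mouse reached a ventral one in either class. The V3 factor Sim1 had 4.07 to 11.2 CPM (median 6.02) in VE and 0.278 to 2.33 CPM (median 0.763) in DE, and the V2 factor Lhx4 3.01 to 10.5 CPM (median 3.46) in VE; both were called, at levels of a few CPM. Lhx1 and Lhx5, LIM genes of several lineages and also of dorsal inhibitory neurons, went the other way in inhibitory neurons (1.29 ± 0.22 and 1.46 ± 0.22). Foxp1 was not called in either class, with 0.04 ± 0.061 and 0.082 ± 0.079, although it was called in excitatory neurons without the male of pool B (0.15).

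The list of ventral factors was mostly below the filter. Of its 30 members 7 were tested between DE and VE (5 called higher in VE and 1 higher in DE, median log2 fold change -1.27) and 5 between DI and VI (2 higher in VI, 2 in DI, median 0.082). Without the filter 29 and 27 were tested, 17 higher in VE and 1 in DE, and 13 higher in VI and 2 in DI. Unfiltered calls over all genes leaned to VI too (5286 against 3204 in DI), and they can rest on very few UMIs. The exception was Uncx, a paired-type homeobox gene, at 0.42 ± 0.18 (SE), FDR 0.0503, a call that was lost without the female of pool B (0.29). Evx1 and Evx2, which mark V0 lineages, had no UMI in DE or DI.

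A further axis of spinal neurons separates late-born local cells, known for Nfib and Neurod2, from early-born long-range cells, known for Zfhx3 and Onecut2. The list of 18 factors holds both kinds, and no test set one kind against the other. Zfhx3, a large zinc finger homeodomain protein, had 637 to 1169.6 CPM (median 824) in VE against 70.7 to 146 CPM (median 109.6) in DE (-2.92 ± 0.063 (SE), FDR 1.43e-20). The inhibitory values were 391 to 921 CPM (median 591) in VI against 95.0 to 171 CPM (median 119) in DI (-2.20 ± 0.32 (SE), FDR 0.00243). Onecut2 had 35.1 to 53.0 CPM (median 41.0) in VE against 3.97 to 8.89 CPM (median 5.92) in DE (-2.64 ± 0.16), and changed by -2.61 ± 0.17 in inhibitory neurons. Esrrg (chr1:187608791-188214885), an orphan estrogen-related receptor that drives oxidative metabolism and marks gamma motor neurons, had 807 to 1187 CPM (median 942) in VE and 146 to 224 CPM (median 159) in DE (-2.46 ± 0.048 (SE), FDR 1.42e-28). Its inhibitory values were 1187 to 1735 CPM (median 1359) in VI and 200.1 to 318 CPM (median 240.4) in DI (-2.51 ± 0.06 (SE), FDR 1.61e-22), and the class difference was not called (0.064 ± 0.078 (SE), FDR 0.723). The related Esrrb had 7.92 to 16.2 CPM (median 10.2) in VE and 0 to 1.17 CPM (median 0.576) in DE, and 17.6 to 30.8 CPM (median 20.8) in VI and 0.562 to 4.63 CPM (median 1.61) in DI.

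Higher dorsally were Nfib (0.98 ± 0.094 excitatory, 1.42 ± 0.12 inhibitory), Nfix (1.55 ± 0.15 and 1.70 ± 0.27) and Prox1 (1.42 ± 0.14 and 0.94 ± 0.23). Neurod2 did not pass the filter, with 1.64 to 6.55 CPM (median 4.56) in DI and at most 1.72 CPM in any mouse of the other 3 sub-types. Nfia, a paralog of Nfib, was higher ventrally, with 296 to 435 CPM (median 360.1) in VE against 119.9 to 211 CPM (median 161) in DE (-1.20 ± 0.059 (SE), FDR 2.09e-15) and -0.96 ± 0.15 (SE), FDR 0.00142 in inhibitory neurons. Zfhx4 was higher in VE (-0.84 ± 0.06) but not different between DI and VI at this threshold (0.007 ± 0.17), and its class difference was called (-0.90 ± 0.19 (SE), FDR 0.00372), as was that of Zfhx3 (-0.72 ± 0.27 (SE), FDR 0.0987). The latter call was lost, at -0.73 to -0.51, without the female or the male of pool A or of pool B. Of the 18 factors, 13 were tested in each class, with 6 higher dorsally and 6 ventrally among excitatory neurons and 6 and 5 among inhibitory neurons. The class difference was called for 2 of 13, near the 16.5% of all genes.

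Among inhibitory nuclei the GABA-making enzymes were higher in DI and the glycine transporter in VI. Gad1 had 109 to 144 CPM (median 117) in DI and 12.7 to 21.3 CPM (median 19.1) in VI (2.81 ± 0.15 (SE), FDR 9.49e-15). Gad2, the other GABA-making enzyme, had 96.9 to 138 CPM (median 113) in DI and 31.3 to 53.8 CPM (median 37.2) in VI (1.56 ± 0.1 (SE), FDR 2.54e-13). Slc6a5, the neuronal glycine transporter GlyT2, went the other way, with 117 to 174 CPM (median 165) in VI and 72.7 to 97.5 CPM (median 83.7) in DI (-0.83 ± 0.089 (SE), FDR 9.07e-09). Slc32a1, the vesicular transporter that both transmitters share, differed far less between DI and VI (0.35 ± 0.13 (SE), FDR 0.0285), with a positive sign in 4 of 6 mice. The call was lost without the female (0.21) or the male (0.32) of pool B. In excitatory neurons Slc17a6 differed little, 119 to 126 CPM (median 123) in DE and 100.3 to 118 CPM (median 109) in VE (0.17 ± 0.056 (SE), FDR 0.00834). Among nuclei with a mapping score of at least 0.5 the sign turned (-0.039, FDR 0.646).

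Of 13 transmitter genes 9 were tested between DE and VE, 4 higher in DE and 3 in VE, and 8 between DI and VI, 5 higher in DI and 2 in VI. The median log2 fold changes were 0.060 and 0.784.

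The neuropeptide genes that passed the filter on low counts were higher dorsally. Peptides are made as larger precursors, stored in dense-core vesicles and released at high firing rates, and in the dorsal horn they define the main interneuron populations. Of 27 peptide genes 13 passed the filter between DE and VE, all 13 called higher in DE (median log2 fold change 2.46). Of the 8 that passed between DI and VI, all 8 were higher in DI (median 2.71). A peptide made by few cells passes that filter through the side that holds them. Without the filter 19 of 27 were higher in DE and none in VE, and of 26 tested 12 were higher in DI and 2 in VI. The last 2, Crh (-0.99, FDR 0.0645) and Ucn3 (-0.98, FDR 0.0478), named after their values were seen, had 1 and 0 UMIs in all DI sums and 2 and 1 in all VI sums. Nmu, neuromedin U, had 24.3 to 64.2 CPM (median 52.5) in DE and 0 to 2.71 CPM (median 1.24) in VE (4.87 ± 0.33 (SE), FDR 8.44e-11). Tac2, which encodes neurokinin B, had 22.5 to 54.4 CPM (median 38.9) in DE and 0 to 5.12 CPM (median 1.58) in VE (4.02 ± 0.37 (SE), FDR 9.30e-07). No VE mouse reached a DE mouse in either gene. Nts (neurotensin) had a log2 fold change of 3.79 ± 0.21, Cck (cholecystokinin) 2.46 ± 0.24, and Tac1 (substance P) 2.71 ± 0.27 in excitatory and 2.78 ± 0.36 in inhibitory neurons. Grp, the gastrin-releasing peptide of itch circuits, had 6.42 to 13.8 CPM (median 9.35) in DE and 0 to 1.02 CPM (median 0.806) in VE.

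Sst, somatostatin, belonged to the excitatory dorsal neurons. It had 36.9 to 62.7 CPM (median 47.6) in DE and 3.79 to 8.53 CPM (median 5.37) in VE (3.00 ± 0.16 (SE), FDR 1.32e-17). Inhibitory neurons held 5.34 to 13.0 CPM (median 7.86) in DI and 1.79 to 10.8 CPM (median 5.18) in VI (0.63 ± 0.29 (SE), FDR 0.0789; not called without the male of pool A, 0.59, or of pool C, 0.54). The class difference was 2.29 ± 0.39 (SE), FDR 4.00e-05. With equal depth of 5000 UMIs per nucleus, 17.6% of DE nuclei held an Sst UMI, on average over mice, against 3.46% of VE, 4.25% of DI and 1.58% of VI nuclei. Npy (neuropeptide Y) and Pnoc (nociceptin precursor) were dorsal inhibitory genes. They had 10.2 to 29.5 CPM (median 16.4) and 11.7 to 26.8 CPM (median 23.3) in DI against 0 to 1.32 CPM (median 0.944) and 1.54 to 5.37 CPM (median 2.77) in VI (3.85 ± 0.36 and 2.77 ± 0.28). Penk, the enkephalin precursor, was higher dorsally in both classes (1.82 ± 0.13 and 2.17 ± 0.23). So was Scg2, secretogranin II of dense-core vesicles, with 60.4 to 144 CPM (median 95.1) in DI and 3.58 to 27.7 CPM (median 18.3) in VI (1.84 ± 0.13 and 2.64 ± 0.15). Vgf, a precursor of several secreted peptides, changed more in inhibitory neurons (1.42 ± 0.19) than in excitatory ones (0.42 ± 0.19; class difference -0.93 ± 0.30 (SE), FDR 0.0368). Its excitatory call was lost, at 0.21 to 0.43, without the female of pool A or either mouse of pool B, and the class difference, at -0.80, without the female of pool B.

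Several peptide genes are textbook targets of the cAMP response element, the palindrome TGACGTCA (the same letters on both strands). The 250 bases before the RefSeq start of each gene were searched for it after the direction of the peptide genes was seen. It was picked as a known feature of such genes, so the shares below say nothing about their dorsal-ventral difference. The element stood in 3 of 20 peptide genes with a promoter entry (15%), against 478 of 27025 genes with an entry (1.77%) and 285 of the 9292 genes that were tested in either class and had an entry (3.07%). The 3 windows of 30 bases are given on the minus strand of GRCm38.p6, 5′ to 3′, with the element in capitals; Sst and Scg2 are described above, and Cartpt, the CART peptide gene, did not pass the filter on low counts (without it 1.71, FDR 0.00042, in excitatory and 1.37, FDR 0.0286, in inhibitory neurons).
Sst, chr16:23890874-23890903, element 48 to 41 bases before the start: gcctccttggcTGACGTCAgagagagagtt
Scg2, chr1:79440076-79440105, element 68 to 61 bases before the start: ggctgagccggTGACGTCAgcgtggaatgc
Cartpt, chr13:99900777-99900806, element 112 to 105 bases before the start: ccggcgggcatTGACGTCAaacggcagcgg
A match of letters is a description of the window, and the remaining peptide genes with an entry lack these exact letters in it.

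More peptide receptor genes were higher dorsally than ventrally in excitatory neurons, while in inhibitory neurons they were mixed. Of 41 receptor genes 24 were tested between DE and VE, 16 higher in DE and 3 in VE (median 0.735). Of 15 tested between DI and VI, 6 were higher in DI and 5 in VI (median 0.015). Without the filter on low counts 38 were tested between DE and VE, 20 higher in DE and 4 in VE. Between DI and VI 37 were tested, 15 higher in DI and 8 in VI. Tacr3, the neurokinin B receptor, had 34.8 to 51.6 CPM (median 38.3) in DE and 5.48 to 11.4 CPM (median 8.44) in VE (2.16 ± 0.15) and was higher in DI too (1.70 ± 0.36). Grpr, the itch receptor for gastrin-releasing peptide, had 5.35 to 15.5 CPM (median 13.6) in DE and 0 to 2.58 CPM (median 1.14) in VE, and Npy1r was higher in DE (2.82 ± 0.20). Tacr1, the substance P receptor, did not separate DE from VE, at 24.5 to 63.6 CPM (median 45.1) and 40.4 to 64.1 CPM (median 45.7) (-0.16 ± 0.087), yet was lower in DI than VI (-2.17 ± 0.21; class difference 1.97 ± 0.41 (SE), FDR 0.0028). Leaving out the female of pool A, B or C gave Tacr1 an excitatory call, at -0.21 to -0.20. The opioid receptors split, Oprm1 (mu) being higher dorsally (0.34 ± 0.065 and 0.95 ± 0.087) and Oprd1 (delta) higher ventrally (-1.07 ± 0.12 and -2.16 ± 0.20). The receptors Cckbr (-1.21 ± 0.15 and -1.21 ± 0.20) and Crhr1 (-1.28 ± 0.12 and -0.38 ± 0.15) also stood higher ventrally. The inhibitory call of Crhr1 was lost without the female of pool A (-0.30) or the male of pool B (-0.35).

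GABA-A and glycine receptor genes differed by subunit. Gabra2 and Gabra4 were higher dorsally in both classes, Gabra4 with 39.8 to 63.1 CPM (median 54.6) in DE and 9.14 to 17.2 CPM (median 11.4) in VE (2.11 ± 0.11 and 2.09 ± 0.21) and Gabra2 by 1.12 ± 0.057 and 1.27 ± 0.089. Gabra5, an extrasynaptic subunit, was lower in DI than VI (-0.97 ± 0.12) and much less so in DE than VE (-0.12 ± 0.057; class difference 0.84 ± 0.13 (SE), FDR 4.00e-06). The small excitatory difference held its call only when all mice or all but the male of pool A were used (otherwise -0.12 to -0.091). For glycine receptors, Glra3 was higher dorsally (1.03 ± 0.079 and 1.20 ± 0.20) and Glra1, the adult synaptic alpha subunit, higher ventrally (-0.44 ± 0.052 and -0.37 ± 0.064). Of 25 such genes 16 were tested in each class, 11 higher in DE and 4 in VE (median 0.341). In inhibitory neurons 8 were higher in DI and 5 in VI (median 0.191).

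Ionotropic glutamate receptors exchanged subunits along the same axis. Gria1 and Gria2, AMPA receptor subunits, were higher dorsally and Gria3 and Gria4 ventrally in both classes. Gria1 had 499 to 636 CPM (median 545) in DE and 193 to 289 CPM (median 254) in VE (1.16 ± 0.06 (SE), FDR 6.41e-13). It had 769.8 to 1043 CPM (median 932) in DI and 119.9 to 234 CPM (median 184) in VI (2.40 ± 0.092 (SE), FDR 1.86e-12), so that the sides did not overlap in either class. Gria3 had 370.1 to 463 CPM (median 418) in DE and 800.4 to 920.3 CPM (median 876) in VE (-1.06 ± 0.043 (SE), FDR 2.12e-20) and changed by -0.67 ± 0.054 in inhibitory neurons. Gria2 changed by 0.94 ± 0.041 and 0.68 ± 0.057 and Gria4 by -0.77 ± 0.036 and -0.23 ± 0.053. Each of the 4 also differed between classes, from -1.25 (Gria1) to 0.25 (Gria2).

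Several kainate and metabotropic receptors differed between the classes. Grik2, a kainate receptor subunit, had 3111 to 4319 CPM (median 3669) in DI and 1336 to 2211 CPM (median 1766) in VI (1.10 ± 0.05 (SE), FDR 1.18e-16). Its excitatory values were 984 to 1423 CPM (median 1127) in DE and 1615 to 2133 CPM (median 1859) in VE (-0.69 ± 0.035 (SE), FDR 5.22e-18). It thus stood higher dorsally in inhibitory and higher ventrally in excitatory neurons, with overlapping levels in VE and VI. Grik3 showed the same crossing (1.35 ± 0.14 and -0.77 ± 0.094). Grm3, a presynaptic and glial group II receptor, had 536 to 786 CPM (median 617) in DI and 98.4 to 136 CPM (median 129) in VI (2.36 ± 0.075 (SE), FDR 4.36e-20) and overlapped between DE and VE (0.15 ± 0.098; called at 0.22 without the female of pool C). Grid1, an orphan delta receptor that organizes synapses, was low in DI alone, with 197 to 403 CPM (median 269) against 766 to 1294 CPM (median 1009) in VI (-1.84 ± 0.061). In excitatory neurons it had 982 to 1523 CPM (median 1269) in DE and 773 to 1294 CPM (median 1031) in VE. The NMDA receptor subunit gene Grin3a was higher in DE than VE (1.13 ± 0.047) and lower in DI than VI (-0.72 ± 0.074). Grm5 was higher dorsally in both (0.90 ± 0.049 and 1.73 ± 0.11). Of 26 glutamate receptor genes 22 were tested, 12 higher in DE and 9 in VE (median 0.287), and 13 higher in DI and 7 in VI (median 0.361). The class difference was called for 18 of 22, against 16.5% of all genes.

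**Figure D4:**
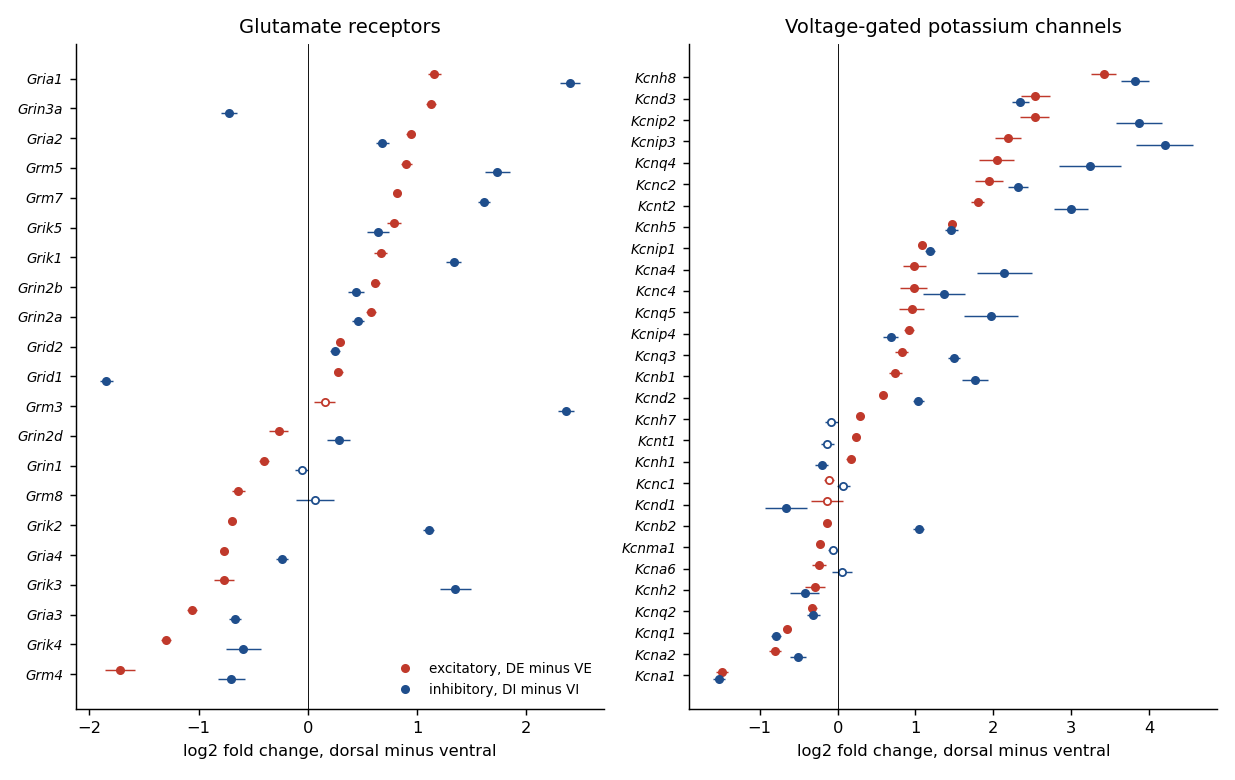
Dorsal minus ventral log2 fold change ± SE of glutamate receptor and voltage-gated potassium channel genes in excitatory and inhibitory neurons, open markers where FDR was 0.1 or above. Gria1 and Gria2 lie right of 0 and Gria3 and Gria4 left in both classes, while Grik2, Grik3 and Grin3a change sides between classes.

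Among potassium channels, Kcnd3 and its partners were dorsal. Kcnd3 (Kv4.3), which carries A-type current, had 386 to 599 CPM (median 497) in DE and 52.6 to 147 CPM (median 84.5) in VE (2.54 ± 0.18 (SE), FDR 6.73e-05) and was higher in DI as well (2.35 ± 0.11). Its auxiliary subunits Kcnip2 (2.53 ± 0.18 and 3.87 ± 0.29) and Kcnip3 (2.19 ± 0.17 and 4.20 ± 0.37) followed. Kcnh8, of the Elk family, had 170.1 to 258 CPM (median 207) in DE and 7.92 to 28.2 CPM (median 19.9) in VE (3.42 ± 0.16 (SE), FDR 5.29e-09). Its inhibitory levels were 192 to 296 CPM (median 235) in DI and 7.73 to 26.4 CPM (median 12.1) in VI (3.82 ± 0.18 (SE), FDR 1.30e-13). No ventral mouse came near a dorsal one in that gene. Kcnc2, of the Kv3 family, was higher dorsally (1.94 ± 0.18 and 2.31 ± 0.13). Kcna1 (Kv1.1), a low-threshold channel of axons and initial segments, was higher ventrally, with 152 to 257 CPM (median 175) in VE and 54.5 to 89.2 CPM (median 68.6) in DE (-1.48 ± 0.078 (SE), FDR 2.06e-12) and -1.52 ± 0.077 in inhibitory neurons. Of 35 genes 30 were tested in each class, 19 higher in DE and 9 in VE (median 0.667). Among inhibitory neurons 17 were higher in DI and 8 in VI (median 1.04).

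Several sodium channel genes of fast-firing axons stood higher ventrally. Scn8a (Nav1.6), the main channel of initial segments and nodes, had 408 to 529 CPM (median 474) in VE and 199.5 to 246 CPM (median 221) in DE (-1.09 ± 0.046 (SE), FDR 3.65e-20), with -1.03 ± 0.06 in inhibitory neurons. Scn1a (Nav1.1) and Scn4b, the subunit of resurgent current, moved the same way (-0.61 ± 0.042 and -0.83 ± 0.056 for Scn1a, -1.26 ± 0.12 and -1.35 ± 0.15 for Scn4b). Scn9a did so too (-1.07 ± 0.056 and -1.48 ± 0.074). Scn3a, prominent in immature neurons, and the beta subunit gene Scn3b were higher dorsally (1.30 ± 0.062 and 1.48 ± 0.088 for Scn3a, 2.10 ± 0.14 and 2.43 ± 0.25 for Scn3b). Of 19 sodium and HCN channel genes 16 and 14 were tested, 8 higher in DE and 6 in VE (median -0.039), and 5 higher in DI and 6 in VI (median -0.312).

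Among calcium channels, the R-type gene and a pair of the 3 T-type genes were higher dorsally in both classes. Cacna1e (Cav2.3) had 714 to 1073 CPM (median 953) in DE and 217 to 342 CPM (median 299.6) in VE (1.68 ± 0.047 (SE), FDR 1.10e-24). In inhibitory neurons it had 789 to 1143 CPM (median 1027) in DI and 98.8 to 208 CPM (median 166) in VI (2.74 ± 0.078 (SE), FDR 3.88e-19). The T-type genes Cacna1g (1.74 ± 0.089 and 2.80 ± 0.19) and Cacna1h (3.40 ± 0.21 and 2.01 ± 0.25) were likewise higher dorsally. The third, Cacna1i, was higher in DI at 55.3 to 94.4 CPM (median 81.7) than in VI at 23.8 to 44.6 CPM (median 32.0) (1.33 ± 0.11 (SE), FDR 1.06e-10). It overlapped between DE and VE and was not called there (-0.14 ± 0.087 (SE), FDR 0.191), with a class difference of -1.46 ± 0.14 (SE), FDR 3.11e-11. In nuclei thinned to equal depth, 12.0% ± 3.26 of DE and 16.7% ± 3.603 of VE nuclei held a Cacna1i UMI (SD, n = 6). Cacna2d1, the subunit that binds gabapentin, was high in DE, 1549.5 to 2035 CPM (median 1801), against 474 to 604 CPM (median 536) in VE (1.74 ± 0.047 (SE), FDR 1.07e-20). It was not called between DI and VI (-0.46 ± 0.29), where nuclei chosen for matching transmitter UMIs gave 1.22 (FDR 0.0117). Its relative Cacna2d3 had 561 to 859.7 CPM (median 672) in VE and 179.7 to 326 CPM (median 262) in DE (-1.46 ± 0.048), and stood slightly higher in DI than VI (0.26 ± 0.048). Of 18 genes 16 and 15 were tested, 8 higher in DE and 3 in VE (median 0.229), and 8 higher in DI and 3 in VI (median 0.248).

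Several genes of the perineuronal net, the extracellular coat of fast-firing neurons, and a pair of neurofilament genes of thick axons were higher ventrally in both classes. Acan (aggrecan), the net's core proteoglycan, had 16.6 to 24.3 CPM (median 21.1) in VE and 2.98 to 4.59 CPM (median 3.76) in DE (-2.47 ± 0.17 (SE), FDR 3.39e-14). Its inhibitory levels were 22.0 to 37.6 CPM (median 28.2) in VI and 5.22 to 10.3 CPM (median 6.51) in DI (-1.96 ± 0.19 (SE), FDR 1.36e-09). Bcan (brevican, -2.002 ± 0.11 and -1.61 ± 0.15), the link protein gene Hapln1 (-1.64 ± 0.15 and -1.84 ± 0.20) and Tnr (tenascin-R, -1.07 ± 0.069 and -1.06 ± 0.095) followed in both classes. Of the 12, 10 and 8 were tested. Of these, 6 and 4 were called higher ventrally and none dorsally, and 4 in each class were not called (median -0.943 and -0.675). Bcan and Tnr are also made by oligodendrocyte precursors, whose 4 markers (Pdgfra, Cspg4, Tnr, Vcan) summed to 546 to 680 CPM in VE and 234 to 365 in DE, and to 438 to 572 in VI and 181 to 349 in DI. Tnr is itself of the net group and made up most of these sums, at 522 to 670 CPM in VE, 223 to 347 in DE and 1976 to 4241 in the nuclei of such precursors, all scaled by total UMIs. Pdgfra reached at most 1.59 CPM in VE, 3.85 in DE, 0.475 in VI and 5.404 in DI, against 50.5 to 183 in the precursors. Cspg4 reached at most 1.08 CPM in VE, 2.03 in DE, 2.38 in VI and 1.55 in DI, against 31.5 to 114. Bcan was at 32.8 to 57.8 CPM in VE and at 33.6 to 61.2 in the precursors. Vcan was not called (-0.33 ± 0.19 and -0.18 ± 0.56), but was between DE and VE without the female of pool A (-0.42) or B (-0.56). The part of such RNA in the net genes was not tested. Among neurofilament and cytoskeletal genes Nefm was higher ventrally (-1.07 ± 0.13 and -1.34 ± 0.11), as was Nefh (-0.55 ± 0.10 and -0.87 ± 0.15). Nefl was called between DE and VE (-0.28 ± 0.11 (SE), FDR 0.0433) but not between DI and VI (-0.08 ± 0.10), and the former call was lost without the male of pool A (-0.21). Of 13 such genes 12 were tested, 2 higher in DE and 7 in VE (median -0.232), and 2 higher in DI and 5 in VI (median -0.069), with 3 and 5 not called. The members higher dorsally, Stmn1 and Stmn4 of the microtubule-binding stathmins, were at least 2-fold so in both classes. The motor neuron markers, which share Prph with this list and Slit3 with that of guidance genes, moved with the neurofilament genes. Their mean was 109 ± 13.4 CPM in VE against 38.7 ± 9.42 in DE and 105 ± 29.0 in VI against 60.004 ± 8.37 in DI (SD, n = 6). Their part in this result was not tested.

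Axon guidance receptors were exchanged between the horns. Nrp1 (chr8:128358604-128503363), a co-receptor of semaphorins, had 259 to 351 CPM (median 299.8) in DE and 20.2 to 35.9 CPM (median 27.1) in VE (3.40 ± 0.093 (SE), FDR 8.20e-21). Inhibitory neurons had 247 to 335 CPM (median 275) in DI and 43.1 to 57.3 CPM (median 50.7) in VI (2.47 ± 0.088 (SE), FDR 4.68e-19). Its paralog Nrp2 (chr1:62703285-62818695) ran the other way, with 31.0 to 44.0 CPM (median 35.4) in DE and 85.2 to 125 CPM (median 102) in VE (-1.48 ± 0.086 (SE), FDR 3.45e-14), and -2.26 ± 0.12 in inhibitory neurons. In the Slit pathway, whose ligands repel axons that carry Robo receptors, Slit2 had 624 to 902 CPM (median 789) in VE and 177 to 313 CPM (median 219.7) in DE (-1.75 ± 0.05), and inhibitory neurons 819.7 to 1099.8 CPM (median 979) in VI and 89.9 to 152 CPM (median 118) in DI (-3.03 ± 0.071). Robo1 was higher ventrally (-1.68 ± 0.052 and -0.91 ± 0.051) and Robo2 dorsally (0.76 ± 0.042 and 1.07 ± 0.067). Dcc, the netrin receptor, lay higher in DE than VE (0.39 ± 0.063) and lower in DI than VI (-0.52 ± 0.068). Of 41 guidance genes 38 and 36 were tested, 18 higher in DE and 16 in VE (median -0.127), and 15 higher in DI and 15 in VI (median 0.105). The class difference was called for 22 of 38, against 16.5% of all genes. Of 21 cadherins, adhesion molecules that help to sort neurons, 16 were tested in each class with 6 and 7 called higher in DE and VE and 5 and 8 in DI and VI (medians -0.123 and -0.151). Among them was Cdh18, which had 3099 to 4176 CPM (median 3481) in VE and 987 to 1355 CPM (median 1134) in DE (-1.61 ± 0.036 and -1.69 ± 0.059).

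Calcium-binding proteins and kinases C, long used to map dorsal laminae, were mostly dorsal. Calb1 (calbindin) had 59.3 to 83.0 CPM (median 70.7) in DE and 1.72 to 8.29 CPM (median 4.39) in VE (3.83 ± 0.30 (SE), FDR 4.76e-07). Prkcq had 90.7 to 122 CPM (median 104) in DI and 1.93 to 8.38 CPM (median 5.15) in VI (4.24 ± 0.26) and 2.79 ± 0.19 in excitatory neurons. Prkcd was at 13.1 to 27.8 CPM (median 16.4) in DI against 0 to 1.79 CPM (median 0) in VI. Prkcb crossed between classes, higher in VE (-0.47 ± 0.043) and in DI (0.41 ± 0.057). All 13 genes were tested between DE and VE, 10 higher in DE and 2 in VE (median 1.47), and 12 between DI and VI, 8 higher in DI and 4 in VI (median 0.705).

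Hox genes, which set position along the head-to-tail axis and stay active in adult spinal neurons, lay on both sides. All tested HoxB genes, 8 in excitatory and 7 in inhibitory neurons, were higher dorsally. Hoxb8, whose loss leaves mice with excess grooming and altered pain responses, had 25.0 to 33.6 CPM (median 30.3) in DE and 6.88 to 12.2 CPM (median 8.13) in VE (1.70 ± 0.13 (SE), FDR 1.54e-13). Its inhibitory levels were 26.7 to 47.8 CPM (median 37.2) in DI and 5.73 to 15.4 CPM (median 8.67) in VI (2.18 ± 0.19 (SE), FDR 1.92e-10). Hoxb3 (1.31 ± 0.079 and 1.27 ± 0.13), Hoxb6 (1.55 ± 0.098 and 1.09 ± 0.13) and Hoxb9 (2.37 ± 0.22 and 1.90 ± 0.30) moved alike. Hoxc4 and Hoxc5 were higher ventrally, Hoxc5 with 107 to 174 CPM (median 135) in VE and 76.0 to 112 CPM (median 95.3) in DE (-0.50 ± 0.057 (SE), FDR 3.29e-09). Its inhibitory levels were 99.7 to 174 CPM (median 131) in VI and 40.5 to 70.7 CPM (median 56.0) in DI (-1.24 ± 0.084 (SE), FDR 7.65e-13). These were the only HoxC genes tested, of 9. Of the HoxD genes 5 and 2 were tested, 3 and 2 of them higher ventrally and none dorsally, among them Hoxd11 (-1.15 ± 0.16 and -2.14 ± 0.28) and Hoxd3 (-0.73 ± 0.16 and -0.68 ± 0.22). Of 3 HoxA genes tested, Hoxa7 (1.05 ± 0.091 and 0.70 ± 0.14) and Hoxa9 (0.89 ± 0.094 and 0.51 ± 0.13) were higher dorsally, the inhibitory call of Hoxa9 being lost without the mouse block (0.40), and Hoxa10 was not called (-0.024 ± 0.12 and 0.13 ± 0.20). The clusters were counted apart after their values were seen, and no test set one against another. Gene bodies in these clusters overlap and counts include introns, so that reads of neighbours such as Hoxc4 and Hoxc5 may be shared. Of 39 Hox genes 18 and 14 were tested, 10 higher in DE and 5 in VE (median 0.972), and 9 higher in DI and 4 in VI (median 0.836). Without the filter 29 and 26 were tested, 10 higher in DE and 7 in VE, but 10 higher in DI and 10 in VI.

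**Figure D5:**
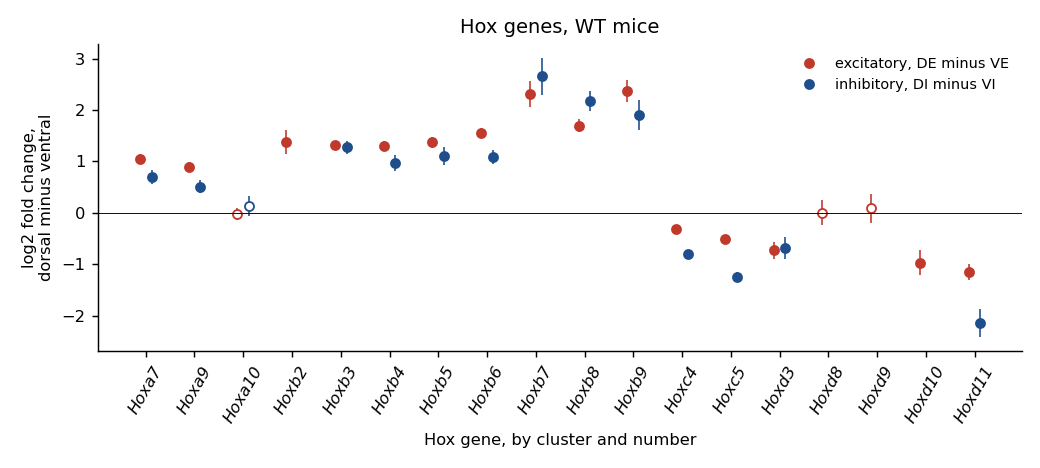
Dorsal minus ventral log2 fold change ± SE of the tested Hox genes in excitatory and inhibitory neurons, ordered by cluster, open markers where FDR was 0.1 or above. The tested HoxB genes lie above 0 in each class, and Hoxc4, Hoxc5 and Hoxd11 lie below it.

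The genes with the largest steady differences were chosen by rule (called, the same sign in 6 of 6 mice, at least 50 CPM on the higher side, the 10 largest each way). Higher in DE were Myo5b, Arhgap6, Ebf2, its antisense neighbour 4930438E09Rik, Lmx1b, Gm15261, Calb1, Cpne8, Pde11a and Gna14, from 4.51 (Myo5b) to 3.64 (Gna14). Myo5b, a myosin motor of recycling endosomes, had 147 to 220.0 CPM (median 199) in DE and 3.66 to 13.4 CPM (median 8.37) in VE and stayed low in DI at 7.31 to 17.3 CPM (median 10.3). Ebf2 (chr14:67233292-67430918), a helix-loop-helix transcription factor, had 761 to 1209 CPM (median 1003) in DE and 32.7 to 64.5 CPM (median 41.1) in VE (4.49 ± 0.09 (SE), FDR 1.18e-17). The antisense 4930438E09Rik counted beside it shares its reads where counting ignores strand, which is not given in the sources used here. Pde11a, a phosphodiesterase of both cyclic nucleotides, had 355 to 544 CPM (median 437) in DE and 25.2 to 61.0 CPM (median 36.0) in VE. Higher in VE were Mecom, Foxp2, Bmpr1b, Zfhx3, Esrrg, Lrmda, Stpg2, St8sia5, Aff1 and Snrpn, from -3.96 (Mecom) to -2.35 (Snrpn). Mecom, a zinc finger oncogene, had 22.0 to 110.2 CPM (median 46.4) in VE and 1.11 to 5.6 CPM (median 3.03) in DE. Bmpr1b, a BMP receptor, had 31.0 to 111 CPM (median 56.3) in VE and 2.80 to 10.2 CPM (median 7.70) in DE. Snrpn, an imprinted gene of a spliceosomal protein, had 359 to 513 CPM (median 425) in VE and 56.7 to 108 CPM (median 84.7) in DE (-2.35 ± 0.09) and nearly the same change in inhibitory neurons (-2.46 ± 0.071).

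In inhibitory neurons the rule gave Cdh3, Hpse2, Syt10, Hmga2, Baiap3, Stac, Slc24a4, Ankfn1 and Prkcq among others on the dorsal side, from 5.42 (Cdh3) to 4.24 (Prkcq). Cdh3, P-cadherin, had 33.7 to 67.9 CPM (median 52.7) in DI and 0 to 3.97 CPM (median 0.322) in VI, so few UMIs that its fold change depends on the prior count. Syt10, a synaptotagmin of regulated secretion, had 43.5 to 91.9 CPM (median 60.4) in DI and 0 to 7.16 CPM (median 1.14) in VI. Baiap3, a Munc13-like protein of dense-core vesicle traffic, had 35.1 to 82.8 CPM (median 53.8) in DI and 0 to 5.37 CPM (median 1.94) in VI. Both were higher in DE than VE too (3.098 ± 0.17 and 3.38 ± 0.16). Stac, an adaptor of voltage-gated calcium channels, had 330.4 to 483 CPM (median 400.0) in DI and 4.61 to 26.1 CPM (median 17.4) in VI (4.51 ± 0.15 (SE), FDR 1.99e-19). On the ventral side stood Meis2, Foxp2, Kcns3, Samd5, Gfra1, Slit2, Nell1, Lrmda, D930007P13Rik and Rab37, from -3.81 (Meis2) to -2.65 (Rab37). Meis2, a homeodomain partner of Hox proteins, had 148 to 327 CPM (median 218) in VI and 9.496 to 23.3 CPM (median 16.5) in DI (-3.81 ± 0.24 (SE), FDR 9.14e-07). Kcns3, a silent subunit of Kv2 channels, had 57.8 to 94.9 CPM (median 69.1) in VI and 1.405 to 11.5 CPM (median 5.24) in DI. Gfra1, the GDNF co-receptor, had 56.7 to 173 CPM (median 141) in VI and 10.6 to 25.9 CPM (median 13.7) in DI (-3.06 ± 0.16 (SE), FDR 2.94e-13), yet was slightly higher in DE than VE (0.51 ± 0.062).

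Of the 248 genes called on opposite sides, the 10 with the smallest adjusted p for the class difference, 5 each way, were named. More dorsal in excitatory neurons were Dscam, Meis1, Bcl2, Magi2 and Grin3a. Dscam (chr16:96590840-97170752), a homophilic adhesion molecule of self-avoidance, was low in DI alone, at 264 to 477 CPM (median 324), against 1124 to 1783 CPM (median 1397) in VI, 1248 to 1813 CPM (median 1517) in DE and 1174 to 1778 CPM (median 1477) in VE (class difference 2.12 ± 0.068 (SE), FDR 4.27e-26). Its excitatory difference of 0.079 ± 0.036 was positive in 5 of 6 mice and lost its call, at 0.051 to 0.078, without the female of pool B or the male of pool A or C. Meis1, like Meis2 a partner of Hox proteins, had 281 to 407 CPM (median 308) in DE and 119 to 148 CPM (median 127) in VE (1.31 ± 0.054). In DI and VI the order turned, with 18.6 to 35.6 CPM (median 25.3) in DI and 76.6 to 101 CPM (median 77.9) in VI (-1.75 ± 0.11). More dorsal in inhibitory neurons were Grik2, Cacna2d3, Cntnap4, Fmn1 and Cadm1. Cntnap4, a neurexin-family protein of interneuron synapses, had 105 to 167 CPM (median 136) in DE and 260.2 to 374 CPM (median 296) in VE, and 386 to 551 CPM (median 453) in DI and 242 to 376 CPM (median 297) in VI (class difference -1.79 ± 0.08 (SE), FDR 1.96e-22). Cadm1, a synaptic adhesion molecule, changed by -0.49 ± 0.039 and 0.54 ± 0.06.

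The same sub-types in SOD1G93A mice, labelled in the same way, gave the same direction for nearly all of these genes. In those mice 5614 of 10140 genes were called between DE and VE (55.4%) and 3361 of 8014 between DI and VI (41.9%). Of 1176 genes with a called 2-fold difference between DE and VE in WT mice that were also tested in SOD1G93A mice, 1175 had the same sign and 1167 (99.2%) were called on the same side. Between DI and VI these were 944 and 915 of 946 (96.7%). Foxp2 changed by -1.79 ± 0.35 (SE), FDR 0.0051 between DE and VE and by -3.24 ± 0.47 between DI and VI, Lmx1b by 4.19 ± 0.23 between DE and VE, and Grik2 by -0.56 ± 0.054 and 1.07 ± 0.068. Mecom changed by -2.63 ± 0.59 (SE), FDR 0.0124 there.

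A test of the difference itself, added after seeing the data, asked whether the dorsal-ventral difference depended on genotype. It called 4 of 12168 genes in excitatory neurons (Gm16083, Gm30382, Elavl2 and Cadm1, each with FDR 0.0933) and 1 of 10108 in inhibitory neurons (Npsr1, FDR 0.0181) by limma-voom. Named after their values were seen, Elavl2, a neuronal RNA-binding protein, changed by -0.42 and Cadm1 by 0.29 (SOD1G93A minus WT difference, log2), and Npsr1, the neuropeptide S receptor, by -2.54. The edgeR quasi-likelihood test called 0 in both classes, and 910 and 563 genes had an unadjusted limma-voom p under 0.05.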

How the data were processed

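Lumbar spinal cords of WT and SOD1G93A mice were profiled by droplet single-nucleus RNA-seq with hashtagged pools. According to the labels and the study's methods, the authors aligned reads with Cell Ranger 3.1 (STAR 2.5.1b, after bcl2fastq 2.20.0.422) to an mm10 pre-mRNA reference, so that introns count, assigned nuclei to mice by hashtag, removed nuclei with few genes, with a high share of mitochondrial reads or with no single hashtag, and removed mitochondrial genes. Doublets within a mouse were not marked. The deposited values used here were raw UMI counts per gene and nucleus, the percent of mitochondrial UMIs, the mapping score of Seurat 4.0.3 (run in R 4.0.3) for the published reference, and the deposited cell type and sub-type labels.

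Counts were summed per gene, mouse and sub-type. Genes passing filterByExpr (minimum count 10) were scaled by TMMwsp and tested with limma-voom (limma 3.58.1, edgeR 4.0.16, R 4.3.3; robust empirical Bayes), with mouse as a block and Benjamini-Hochberg adjustment over all genes tested (FDR under 0.1). Values over 6 mice were compared by an exact permutation test (scipy 1.17.1). The fits were first tested on simulated data. Same-mouse sums deviated together (correlation 0.161 to 0.446 for DE and VE, 0.138 to 0.375 for DI and VI, over 0.1 in 6 of 6 mice), and both sides come from the same animal. Sums hold 585952 to 7097160 UMIs, and intervals cover the spread between these mice. Alternatives were edgeR, DESeq2 1.42.0, TMM, other filters, no block, thinned depth, each sex alone, each mouse left out and other choices of nuclei. Genes were named by rule: per comparison the 10 largest differences each way among called genes with the same sign in 6 of 6 mice and at least 50 CPM on the higher side, the 5 each way with the smallest adjusted p for the class difference among genes called on opposite sides, and members of the gene lists. The members and lists were chosen with earlier results of these data known. Some genes that the rule or lists hold are not reported here. Gene positions are those of GENCODE vM21 (GRCm38), matched by symbol for 97.9% of genes, and promoter windows those of RefSeq (GRCm38.p6). Integrated values were deposited too and not used.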

Additional observations from a re-analysis of the deposited data

Results flagged for a closer look

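Among 296 per-mouse sets of values tested, 14 had 1 mouse far from the other 5 by Dixon's test, which is near the 1 in 20 that chance gives. The value of that mouse, as dorsal minus ventral log2 difference, was 2.52 for Cacna1h in excitatory neurons of the male WT mouse of pool B (others 3.25 to 3.46), and 4.35 for Cpne8 and 1.59 for Hoxb3 in excitatory neurons and -1.87 for Nefm in inhibitory neurons of the male of pool A. In the male of pool C it was -2.78 for Esrrg and 0.050 for Gfra1, both in excitatory neurons. The female of pool A stood apart with 0.383 for Gria2, 0.305 for Oprm1, -0.546 for Hoxa9 (others 0.487 to 0.771) and 6.07 for Stac in inhibitory neurons, with -1.29 for Zfhx4 in excitatory neurons and with a median mapping score of 0.404 in VI. The female of pool B had 2.23 for Scn3b in excitatory neurons, and the female of pool C 4.27 for Hoxb9 in inhibitory neurons.

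The dorsal-ventral difference itself differed between excitatory and inhibitory neurons (limma-voom, FDR under 0.1) for 82 of the named genes that were tested in both classes. Some of these genes were named for this very difference, so their share says nothing about the rest. The class difference, excitatory minus inhibitory log2 fold change, was positive, so more dorsal in excitatory neurons, for Myo5b 4.32, Gfra1 3.57, Nell1 3.33, Meis1 3.07, Meis2 2.94, 4930438E09Rik 2.91, Satb1 2.68, Cpne8 2.42, Ebf2 2.38, Sst 2.29, Cacna2d1 2.24, Grid1 2.12, Dscam 2.12, Bcl2 1.995, Tacr1 1.97, Gm15261 1.94, Grin3a 1.83, Pde11a 1.67, Kcns3 1.54, Slc17a6 1.47, Cacna1h 1.41, Arhgap6 1.396, Samd5 1.32, Slit2 1.28, Oprd1 1.12, Hoxd11 1.06, D930007P13Rik 1.01, Nrp1 0.94, Dcc 0.91, Magi2 0.87, Gabra5 0.84, Nrp2 0.80, Hoxc5 0.73, Hoxc4 0.48, Hoxb6 0.47, Scn9a 0.43, Hoxa9 0.43, Gphn 0.39, Gria2 0.25 and Scn1a 0.23. It was negative, so more dorsal in inhibitory neurons, for Sall3 -3.53, Hpse2 -3.11, Gad1 -2.81, Rorb -2.78, Gad2 -2.44, Grm3 -2.20, Syt10 -2.16, Grik3 -2.09, Prkcd -2.02, Kcnip3 -2.0, Fmn1 -1.97, Zic1 -1.86, Grik2 -1.80, Cntnap4 -1.79, Cacna2d3 -1.72, Stac -1.66, Nppc -1.59, Cacna1i -1.46, Prkcq -1.46, Kcnip2 -1.39, Gria1 -1.25, Baiap3 -1.22, Bmpr1b -1.18, Cacna1g -1.10, Slc6a5 -1.08, Cacna1e -1.06, Cadm1 -1.02, Ankfn1 -0.94, Vgf -0.93, Crhr1 -0.90, Zfhx4 -0.90, Prkcb -0.87, Grm5 -0.83, Scg2 -0.78, Robo1 -0.78, Zfhx3 -0.72, Oprm1 -0.62, Slc32a1 -0.55, Gria4 -0.54, St8sia5 -0.46, Gria3 -0.39 and Robo2 -0.31. Leaving out the female of pool A ended the call for Zfhx3 (-0.73), Hoxb6 (0.43), Hoxa9 (0.37), St8sia5 (-0.38), Baiap3 (-1.07) and Ankfn1 (-0.91). It was lost without the female of pool B for Zfhx3 (-0.51), Slc32a1 (-0.47), Nppc (-0.99), Vgf (-0.80), Robo2 (-0.29), Hoxb6 (0.42), Hoxa9 (0.36), Syt10 (-1.996) and Baiap3 (-1.13). Leaving out the female of pool C ended the call for Slc32a1 (-0.52), Nppc (-1.37) and Arhgap6 (1.19). It was lost without the male of pool A for Zfhx3 (-0.54), Prkcd (-1.54), Hoxa9 (0.45), St8sia5 (-0.45), Ankfn1 (-0.79) and Kcns3 (1.42). Leaving out the male of pool B ended the call for Zfhx3 (-0.72), Slc32a1 (-0.52), Scg2 (-0.54), Hoxd11 (0.65), Hpse2 (-3.13), Baiap3 (-0.97) and Ankfn1 (-1.04). It was lost without the male of pool C for Slc32a1 (-0.49), Hoxb6 (0.43), Hoxa9 (0.41) and St8sia5 (-0.40). Other choices also ended calls for the class difference of named genes. Without the mouse block 19 were lost, with a mapping score of at least 0.5 there were 16, and with matching transmitter UMIs 10.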

How the results depend on the processing

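The smallest sums, those of VI, limit what could be seen, since 21 to 95 nuclei per mouse stand behind each value. Genes of few cells may fall below the filter, and the labels come from expression. Among 156 named genes, 443 values were recomputed under the alternatives that could give them. Of the results, 7057 kept the side of the threshold, 169 lost and 46 gained the call, and 5 reversed direction with a call before or after. A change of sign without a call in either fit was counted among the 7057. Some genes had no value under a minimum count of 30 or other choices of nuclei, the class difference was not refitted at thinned depth, and each sex alone was run for counts of calls only. The 5 reversals came from choices of nuclei made after seeing the data. With a mapping score of at least 0.5, Slc17a6 in excitatory neurons became -0.039, Slc32a1 in excitatory neurons 0.465 and its class difference 0.152. With nuclei chosen for matching transmitter UMIs, Cacna2d1 in inhibitory neurons became 1.22 and the class difference of Slc6a5 0.603, the latter by construction. Without the filter on low counts 8490 genes were called between DI and VI, 37.7% of them higher in DI against 47.8% in the main analysis, and the median log2 fold change of all genes shifted to -0.207. In every WT mouse the VI sum held fewer UMIs than the DI sum (585952 to 2773924 against 1110225 to 3523839 over mice). The part of this in the shift was not tested. The mice pair the samples, and without the pairing by mouse as a block 6078, 4501, 1126, 5129 and 3116 genes were called (DE versus VE, DI versus VI, class difference, and both sides in SOD1G93A mice), so that the class difference alone moved by more than 1.5 times. The edgeR test, added after seeing the data for genotype by side, called 0 in both classes. Leaving out 1 mouse gave 6681 to 7503, 4419 to 5522 and 1537 to 1888 calls in WT mice and 4994 to 5585 and 2704 to 3596 in SOD1G93A mice. The class difference in the log2 ratio of dorsal to ventral nuclei then lay between -0.591 and -0.450 (-0.889 over all mice with mid sub-types counted as dorsal), and the UMI differences between -0.946 and -0.855 (excitatory) and -0.970 and -0.855 (inhibitory), where 5 mice cannot reach a p below 0.0625. All other alternatives (edgeR, DESeq2, TMM, a minimum count of 30, thinned depth, each sex alone) moved total WT calls by less than 1.5 times. Parts of these totals moved more. The 1269 genes called at 2-fold between DI and VI became 767 with a minimum count of 30 and 3828 without the filter. Between DE and VE 1560 became 1041 and 3247. In females alone 1661 genes were higher in DI, against 2578 in all mice.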
